A study of Mus musculus with 6 samples.

Results

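Gonadotropes are the anterior pituitary cells that make luteinizing hormone (LH) and follicle-stimulating hormone (FSH). The cells described here were 397 droplet barcodes of 23083 in 6 single-cell RNA sequencing libraries of mouse tissue, with 173 in the pituitary library of stressed mice and 224 in that of control mice. A barcode was a member if Lhb and Fshb, the genes of the hormone-specific beta subunits, together held at least 1% of its unique molecular identifiers (UMIs, each standing for 1 captured RNA molecule). It also had to hold under 30% Gh (growth hormone), under 10% Prl (prolactin) and under 5% Pomc (the ACTH precursor) UMIs, at least 200 genes and at most 25% mitochondrially encoded UMIs. These measured values chose the members. The levels of Lhb and Fshb, relative to other cells and between the libraries, are therefore a description and not a finding.

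The study profiled the hypothalamic-pituitary-adrenal axis in the extended paraventricular nucleus, the pituitary and the adrenal gland. Chronic social defeat, in which a mouse is repeatedly exposed to an aggressive one, lasted 21 days in the stressed mice, and the control mice were unstressed. Both groups were C57BL/6 mice of 10 weeks, labelled with no genetic alteration, and each library was 1 pool of pituitaries from 5 mice, dissociated with papain after perfusion with cold saline. The stress and control suspensions ran on 1 droplet chip (10x Genomics).

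With 1 library per group no test between the groups was possible. Each value below therefore comes with an exact interval at 95% confidence that covers the counting of molecules or cells in these pools and not the spread between mice.

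Gonadotropes answer to gonadotropin-releasing hormone (GnRH), which reaches them from hypothalamic neurons in pulses and acts through the receptor encoded by Gnrhr. LH and FSH share the alpha subunit encoded by Cga and differ in the beta subunit, and the pulse pattern, activins, inhibins and gonadal steroids shift the balance between them. Stress and glucocorticoids are known to lower the activity of the reproductive axis at the hypothalamus and the pituitary. In the mouse, Lhb transcription is driven by EGR1 (induced by GnRH), SF1 (the product of Nr5a1) and PITX1, while AP-1 factors (the products of Fos and Jun genes) act on Fshb.

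The promoters of the beta-subunit genes are shown because these factors are measured below, and because Lhb and Fshb differed between the libraries in opposite directions. The sequences are RefSeq's for GRCm38.p6, from 250 bases before to 50 bases after the annotated start, written along the gene's own strand. Capitals mark matches on either strand to TGGGGGNG (EGR), CAAGGNCA (SF1), GATTA (PITX), TGANTCA (AP-1); the palindromic glucocorticoid response element consensus was searched too.
Lhb promoter, chr7:45420696-45420995, plus strand: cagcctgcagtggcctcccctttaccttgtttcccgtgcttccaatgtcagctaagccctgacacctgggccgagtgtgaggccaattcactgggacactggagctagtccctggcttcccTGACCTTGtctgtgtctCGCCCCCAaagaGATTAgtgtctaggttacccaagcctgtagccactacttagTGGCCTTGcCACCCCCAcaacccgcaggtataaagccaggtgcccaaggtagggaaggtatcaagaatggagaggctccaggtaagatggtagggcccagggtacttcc
Fshb promoter, chr2:107059602-107059901, minus strand: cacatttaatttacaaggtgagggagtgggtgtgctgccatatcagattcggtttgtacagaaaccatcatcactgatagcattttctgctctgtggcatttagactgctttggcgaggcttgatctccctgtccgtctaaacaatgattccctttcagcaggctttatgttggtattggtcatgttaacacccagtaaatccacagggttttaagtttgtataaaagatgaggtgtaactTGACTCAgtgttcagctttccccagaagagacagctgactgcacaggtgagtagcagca

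The Lhb promoter held 2 EGR matches, starting at positions -112 and -50 relative to RefSeq's annotated start. The GENCODE span of Lhb given below begins at 45420820, further upstream within this window, so the annotations differ on the start. It also held 2 SF1 matches at -129 and -59, each just upstream of an EGR match, and 1 PITX match at -100. None of these matches overlapped another. The Fshb promoter held 1 match, to AP-1 at -9, where the searched letters TGANTCA match on both strands. Of 32851 mouse promoters of the same length, 14.3% held the EGR letters, 6.71% the SF1 letters, 22.0% the PITX letters, 7.81% the AP-1 letters and 0.475% the glucocorticoid response element. The last had no match in either promoter. A match describes the letters only and shows no binding.

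Stressed mice gave 173 gonadotropes of 5087 kept pituitary barcodes, a share of 3.40% (2.92 to 3.94), and control mice gave 224 of 5157, a share of 4.34% (3.80 to 4.94). The intervals overlapped slightly, which by itself does not place the difference within counting error. No interval of the difference was formed, and with 1 pool per group the difference has no replicate check. At the lower edge, the 3 members nearest the 1% floor had 1.01%, 1.06% and 1.12% Lhb plus Fshb UMIs in the stress library, against 1.06%, 1.09% and 1.18% in the control library. The nearest barcodes below it that passed the other limits had 0.996%, 0.794% and 0.651% in the stress library, against 0.968%, 0.726% and 0.673% in the control library. Few barcodes lay near the floor. A further 4 barcodes in the stress library and 7 in the control library passed the floor but held at least 30% Gh UMIs and were no members.

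The label held against markers that the rule did not use. Gnrhr had at least 1 UMI in 97.7% of members in the stress library and 96.0% in the control library. Its share among all other kept barcodes was 3.74% (stress) and 4.44% (control), and among endothelial barcodes, which should lack the gene, 3.08% (stress) and 6.67% (control). Those background shares come from median depths of 9788.5 and 9469 UMIs for the other barcodes, and of 3946.5 and 3416 UMIs for the endothelial barcodes, in stress and control. Members were of similar depth in both libraries, with a median of 11858 UMIs (2699 to 29308) in stress and 12124 UMIs (2319 to 23346) in control. At an equal 2000 UMIs per barcode the median was 872 genes in stress and 893 in control. Foxl2, which encodes a forkhead factor of gonadotropes, had 0 UMIs in both groups, which allows up to 3 UMIs in each, and its state was not readable here.

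Markers of other cell types were low but not absent. Gh, the transcript of the most frequent pituitary cell, took a median of 2.39% of a member's UMIs in the stress library and 1.84% in the control library, and 10 stress and 12 control members held 10% or more. The 3 thyrotrope markers included Trhr at 0 UMIs in both groups, while Tshb was at 109 CPM in stress and 121 CPM in control (CPM, the UMIs of the gene per 1000000 UMIs of the members). The 7 macrophage markers summed to 3.51 CPM in stress and 64.1 CPM in control, and the 7 endothelial markers to 17.0 CPM in stress and 16.8 CPM in control, with Emcn at 0 in both. Simulated doublets gave high scores to 6 stress and 8 control members. The pituitary libraries shared 39 barcode sequences, of which 0 were stress members and 1 was a control member.

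Members held a larger share of mitochondrially encoded UMIs than the rest of the gland, with medians of 7.02% in the stress library and 7.50% in the control library. All other kept barcodes had medians of 2.46% in stress and 2.61% in control. In those barcodes the somatotrope markers, Gh among them, summed to 468398 CPM in stress and 445924 CPM in control. That leaves a smaller share for every other gene, and its part in the difference was not tested.

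Genes that set the members apart from all other kept pituitary barcodes in both libraries, other than Lhb, Fshb and Gnrhr, included Tgfbr3l, Grem1, Ihh and genes of the Speer family. These are a description, since the members were chosen from the same cells. Tgfbr3l, an inhibin B co-receptor of mouse gonadotropes, was 194-fold above the other barcodes in stress and 174-fold in control. Grem1, a secreted antagonist of bone morphogenetic proteins, was 168-fold above in stress and 181-fold in control. Ihh, a secreted ligand of the hedgehog pathway, was 91.6-fold above in stress and 125-fold in control. Gm10354 (235-fold in stress, 313-fold in control) and Speer4e (190-fold and 165-fold, stress and control) lie within the same stretch of chromosome 5 and belong to the Speer multigene family of near-identical copies, so their counts are uncertain. The other 7 of the 15 leading genes were 2300005B03Rik, Arhgdig, Cnnm1, Kcna4 (a potassium channel), Fam196a, Dgkk (a diacylglycerol kinase) and Sytl2 (a vesicle tethering protein).

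Lhb (ENSMUSG00000100916, chromosome 7, 45420820 to 45421897, plus strand, mm10) was lower and Fshb (ENSMUSG00000027120, chromosome 2, 107056140 to 107059656, minus strand) was higher in gonadotropes of stressed mice. Per cell, Lhb took 0.58% at the lowest, 3.49% at the median and 7.82% at the highest of a member's UMIs in the stress library. In the control library the lowest, median and highest were 0.52%, 5.26% and 15.6%. The cells overlapped over the whole stress range, but Lhb passed 5% in 53 of 173 stress and 122 of 224 control members. Summed over members, Lhb was at 37875 CPM in stress and 53711 CPM in control, a log2 ratio of stress over control of -0.50 (-0.52 to -0.49). Lhb and Fshb chose the members, so their levels describe the cells that passed the floor. With a 2% floor the ratio of Lhb was -0.45, outside that interval.

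Fshb took 0% to 1.94% of a member's UMIs in the stress library with a median of 0.87%, and 0% to 2.59% in the control library with a median of 0.65%. The ranges overlapped almost wholly, and 1 stress and 2 control members had no Fshb UMI. The sums were 8724 CPM in stress and 6952 CPM in control, a log2 ratio of 0.33 (0.30 to 0.36).

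The balance of the beta-subunit transcripts moved with these levels. The Fshb share of Lhb plus Fshb UMIs was 18.7% (18.5 to 19.0) over the stress members and 11.5% (11.3 to 11.6) over the control members. Per cell, its median was 18.8% in stress and 11.2% in control. In 5 stress and 4 control members there were more Fshb than Lhb UMIs. A share of UMIs compares the libraries, is drawn here from the values that chose the members, and is no ratio of the proteins.

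**Figure D1:**
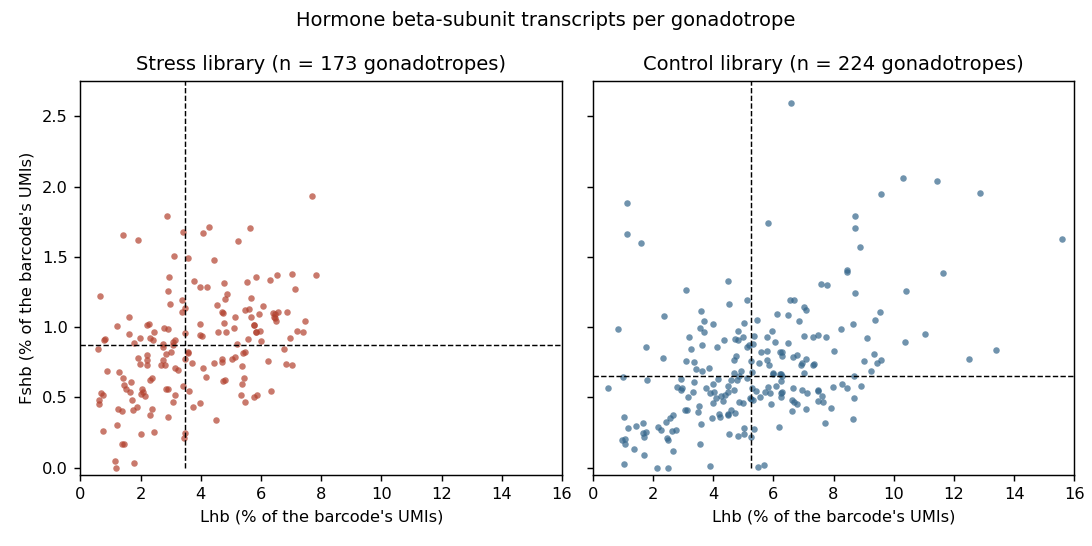
Share of each gonadotrope's UMIs taken by Lhb (x axis, percent) and Fshb (y axis, percent) in the stress library (left, 173 cells) and the control library (right, 224 cells), 1 point per cell, with dashed lines at the medians. The stress cells stop at 7.82% Lhb where control cells reach 15.6%, and the median of Fshb is 0.87% in stress and 0.65% in control.

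Lhb UMIs were found in other cells too, and their level moved with that of the members. All other kept barcodes held 201 CPM of Lhb in stress and 275 CPM in control, a log2 ratio of -0.46, with a UMI in 79.2% of stress and 87.9% of control barcodes. Among endothelial barcodes the share with an Lhb UMI was 70.0% in stress and 81.9% in control. The other barcodes include the 4 stress and 7 control barcodes that passed the floor but held at least 30% Gh UMIs. They also include 1 control barcode over another limit. The endothelial barcodes, which should make no LH, were all below the floor. The part of these UMIs in the members' ratio was not tested, and they stand at under 1% of the members' level. Fshb in the other barcodes was at 51.2 CPM in stress and 48.2 CPM in control, a log2 ratio of 0.09.

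The shared alpha subunit differed little in gonadotropes. Cga (chromosome 4, 34893779 to 34907370, plus strand) took 2.23% to 43.3% of a member's UMIs in stress with a median of 17.8%, and 2.33% to 44.5% in control with a median of 16.4%. The sums were 179753 CPM in stress and 170107 CPM in control, a log2 ratio of 0.08 (0.07 to 0.09). All other kept barcodes held 3472 CPM of Cga in stress and 2627 CPM in control, a log2 ratio of 0.40, and with that ratio subtracted the members' ratio was -0.32. Thyrotropes, which pair the same subunit with Tshb, held 163242 CPM of Cga in stress and 121794 CPM in control.

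The GnRH receptor gene was at nearly the same level in both groups. Gnrhr (chromosome 5, 86180754 to 86197901, minus strand) was at 530 CPM in stress and 555 CPM in control, a log2 ratio of -0.07 whose interval (-0.18 to 0.05) included 0. Tgfbr3l was at 4246 CPM in stress and 4569 CPM in control (-0.11, -0.15 to -0.07).

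Across the cells of a library the beta-subunit shares went together. The Spearman correlation of Lhb and Fshb shares was 0.44 over 173 stress cells and 0.43 over 224 control cells, and that of Lhb and Cga was 0.34 in stress and 0.48 in control. Lhb and Gnrhr shares were nearly unrelated, at 0.09 in stress and 0.02 in control. Lhb and Scg2, a granule protein gene, were at 0.23 in stress and 0.43 in control. Lhb and Fshb also chose the cells, which shapes their correlations. Cells of a library share 1 pool and each pair of shares has the same denominator, so these are descriptions with no test.

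Of the transcription factors behind gonadotrope identity, Nr5a1 and Gata2 were lower in stressed mice and most others were within counting error. Nr5a1, which encodes the nuclear receptor SF1, was at 81.2 CPM in stress and 117 CPM in control (-0.53, -0.82 to -0.25). Gata2, a zinc finger factor of gonadotropes and thyrotropes, was at 135 CPM in stress and 188 CPM in control (-0.48, -0.70 to -0.26). Both intervals left out 0. In the other barcodes Nr5a1 was at 1.54 CPM in stress and 1.84 CPM in control.

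The homeodomain factor genes Pitx1 (0.12, -0.00 to 0.24), Isl1 (0.28, -0.02 to 0.59) and Lhx3 (-0.29, -0.66 to 0.08) had intervals that included 0. So did Foxp2 (-0.19), a forkhead factor gene, and Nr0b1 (0.15), which encodes the SF1 corepressor DAX1. Egr1, the GnRH-induced activator of Lhb, went the other way from Nr5a1 and is described with the immediate-early genes.
Of the 13 measured genes of the identity list (at least 50 UMIs over both libraries), 5 were higher and 8 lower in stress, with a median log2 ratio of -0.08. Over all 7433 genes measured in gonadotropes 46.2% were higher and 53.8% lower, with a median of -0.03, so the split of the list was close to that of all genes.

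**Figure D2:**
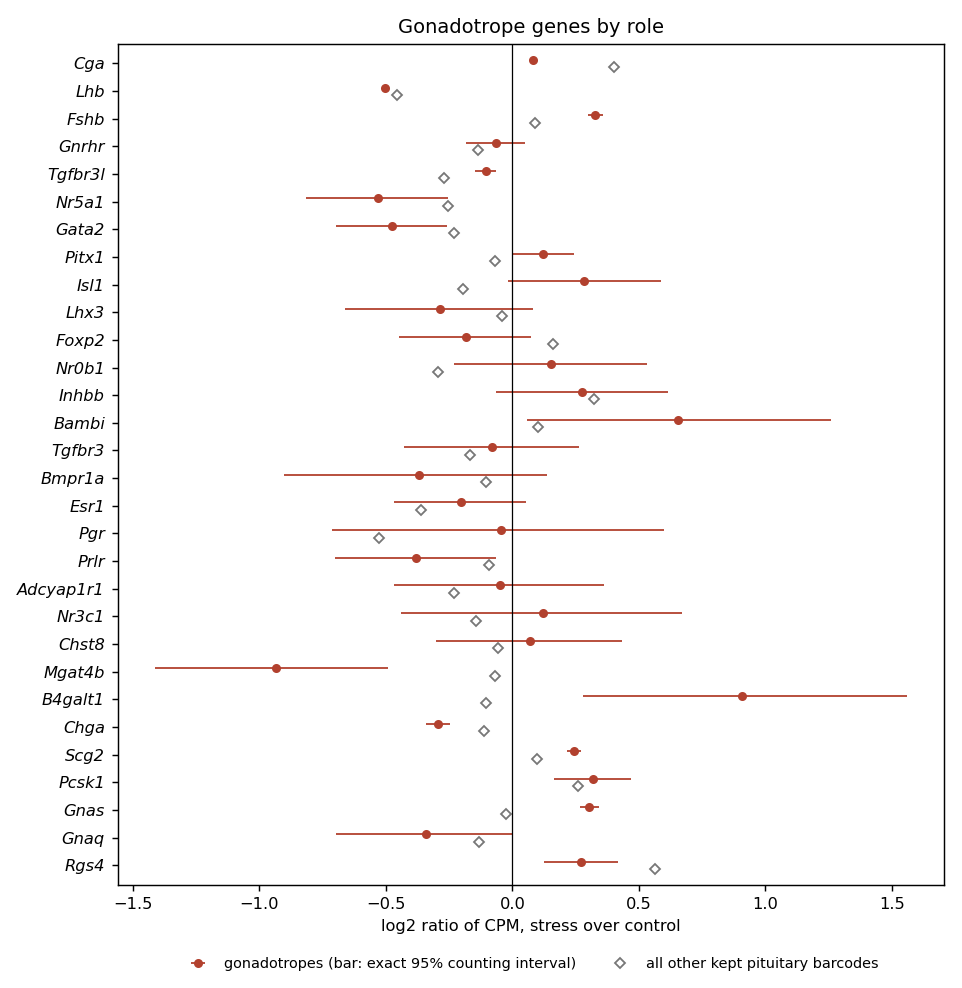
Log2 ratio of CPM, stress over control, of gonadotrope genes ordered by role, from hormone subunits at the top to GnRH signalling genes at the bottom. Filled points are gonadotropes with exact 95% counting intervals and open diamonds are all other kept pituitary barcodes, and Lhb (-0.50), Nr5a1 (-0.53), Gata2 (-0.48) and Mgat4b (-0.94) lie left of 0 while Fshb (0.33) and Gnas (0.30) lie right of it.

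Activin and inhibin genes, which steer FSH output, showed no shared direction. Inhbb, the beta subunit gene of activin B and inhibin B, was at 70.7 CPM in stress and 58.4 CPM in control (0.28, -0.06 to 0.62). Bambi, a decoy receptor of the same ligand family, was at 27.1 CPM in stress and 17.2 CPM in control (0.65, 0.06 to 1.26). Among the 11 measured genes 5 were higher and 6 lower, with a median of -0.06, and only Bambi and Tgfbr3l had intervals that left out 0.

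The co-receptor gene Tgfbr3 (-0.08) and the signal transducer gene Smad4 (-0.06) lay close to 0, with Smad3 at -0.40 (-1.14 to 0.28). Inha, the inhibin alpha subunit gene, had 17 UMIs in stress and 29 in control, and Fst, which encodes the activin-binding follistatin, had 3 in stress and 1 in control, too few to compare.

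Receptor genes for steroids and other hormones were mostly within counting error. Esr1, the estrogen receptor alpha gene, was at 102 CPM in stress and 118 CPM in control (-0.20, -0.47 to 0.05). Pgr, the progesterone receptor gene, was at 18.0 CPM in stress and 18.7 CPM in control. Prlr, the prolactin receptor gene, was lower, at 66.2 CPM in stress and 86.2 CPM in control (-0.38, -0.70 to -0.07).

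Nr3c1, the glucocorticoid receptor gene, was present in gonadotropes at 26.1 CPM in stress and 24.0 CPM in control (0.12, -0.44 to 0.67). All other barcodes held 59.6 CPM in stress and 65.9 CPM in control. Adcyap1r1, the receptor gene for the hypothalamic peptide PACAP, was at 43.1 CPM in stress and 44.6 CPM in control (-0.05). Of 10 measured receptor genes 3 were higher and 7 lower (median -0.06).

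LH and FSH carry sugar chains that set their survival in blood, and the genes of 2 enzymes that build them had intervals that left out 0. Mgat4b, which encodes an enzyme that adds a branch to N-linked chains, was at 28.6 CPM in stress and 54.9 CPM in control (-0.94, -1.41 to -0.49). B4galt1, which encodes a galactosyltransferase, was at 26.6 CPM in stress and 14.1 CPM in control (0.91, 0.28 to 1.56). Chst8, the sulfotransferase gene behind the sulfated chains of LH, was at 57.1 CPM in stress and 54.6 CPM in control (0.07). Of 13 measured glycan enzyme genes 5 were higher and 8 lower (median -0.26), and 1 interval lay above 0 and 1 below.

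In GnRH signalling, Gnas and regulators of G protein signalling were higher in stress, while the list as a whole was evenly split. Gnas, the gene of the stimulatory G protein alpha subunit, was at 5403 CPM in stress and 4376 CPM in control (0.30, 0.27 to 0.34), and at -0.03 in all other barcodes. Gnaq, the alpha subunit gene of the G protein through which the GnRH receptor mainly acts, was at 55.6 CPM in stress and 70.6 CPM in control (-0.34, -0.70 to 0.00). Rgs2, which encodes an inhibitor of that G protein, was at 53.1 CPM in stress and 24.8 CPM in control (1.10, 0.64 to 1.57). Rgs2 was higher in stress in all other barcodes too (0.47, 0.40 to 0.53). By cell type it was at 0.68 in somatotropes, 0.35 in lactotropes and 1.14 in Pomc cells. Rgs4, of the same family, was at 369 CPM in stress and 306 CPM in control (0.27, 0.12 to 0.42).

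The lowest ratio of the list was that of the adenylyl cyclase gene Adcy3 (-0.83, -1.71 to -0.05). Of 34 measured genes 17 were higher and 17 lower, with a median of -0.01 in gonadotropes and -0.12 in the other barcodes. Of their intervals, 7 lay above 0 and 1 below, with no share over all genes to set beside them. Rgs2 was the only one of the 34 at least 2-fold higher and none was at least 2-fold lower. Over all 7433 genes, 25 (0.336%) were at least 2-fold higher and 55 (0.74%) at least 2-fold lower. At a limit of 1.5-fold, 185 (2.49%) were higher and 419 (5.64%) lower.

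Granule genes split between granins. Scg2, which encodes secretogranin II, was at 10730 CPM in stress and 9060 CPM in control (0.24, 0.22 to 0.27), whereas Chga, which encodes chromogranin A, was at 2894 CPM in stress and 3548 CPM in control (-0.29, -0.34 to -0.25). The processing protease gene Pcsk1 was higher, at 348 CPM in stress and 280 CPM in control (0.32, 0.17 to 0.47). Rab27b, a granule-docking GTPase gene, had the highest ratio (0.33, 0.01 to 0.65) and Cplx2, which encodes a clamp of vesicle fusion, the lowest (-0.74, -1.38 to -0.14). Of 28 measured genes 14 were higher and 14 lower.

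Immediate-early genes, which cells switch on within minutes of a stimulus, shared a direction. Of 18 measured in gonadotropes, 16 were higher and 2 lower in stress, with a median log2 ratio of 1.02. At least 2-fold higher were 9 of the 18, beside 0.336% of all genes. The same 18 genes had a median of 0.85 in all other kept barcodes, with 16 higher there too, so the direction was common to the gland. By cell type the median was 1.40 in somatotropes (17 genes), 0.48 in lactotropes (13 genes), 0.95 in Pomc cells (17 genes) and 0.85 in endothelial barcodes (11 genes).

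Egr1 was at 233 CPM in stress and 104 CPM in control (1.17, 0.95 to 1.39), and at 0.97 in the other barcodes. It had a UMI in 69.4% of stress and 43.8% of control members, and in 30.1% of stress and 12.9% of control members thinned to 2000 UMIs each. Fos, an AP-1 subunit gene, was at 798 CPM in stress and 370 CPM in control (1.11, 0.99 to 1.22), below its ratio of 1.40 in the other barcodes. Jun, its partner, was at 223 CPM in stress and 61.4 CPM in control (1.85, 1.59 to 2.13), with 1.29 in the other barcodes.

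The NR4A orphan nuclear receptor genes had higher ratios in gonadotropes than in the other barcodes pooled. Nr4a1 was at 59.6 CPM in stress and 12.2 CPM in control members (2.27, 1.72 to 2.90), against 20.4 CPM in stress and 16.3 CPM in control for the other barcodes (0.32, 0.19 to 0.46). Nr4a2 was at 36.1 CPM in stress and 8.01 CPM in control members (2.15, 1.45 to 2.95), against 12.6 CPM in stress and 15.7 CPM in control for the other barcodes (-0.32, -0.47 to -0.16). For both genes the members' interval lay wholly above that of the other barcodes. By cell type, Nr4a1 was at -0.15 in somatotropes, 0.86 in lactotropes and -0.15 in Pomc cells, and Nr4a2 at -0.40, 0.47 and -0.61 in the same order. Their UMIs were spread over cells, since 32.4% of stress and 11.2% of control members had an Nr4a1 UMI, and no stress cell held over 6.94% of the Nr4a2 UMIs.

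Npas4, a neuronal activity gene, was at 20.5 CPM in stress and 3.81 CPM in control (2.38, 1.41 to 3.59). Atf3, a stress-induced factor gene, had the highest ratio (2.44, 1.48 to 3.66), but 50% of its 10 control UMIs and 16.3% of its 43 stress UMIs came from 1 cell each. Without doublet-scored members the ratio of Atf3 was 3.67, and with a 2% floor on Lhb plus Fshb 3.35. Zfp36, which encodes an mRNA decay factor, had the lowest ratio in gonadotropes (-0.27, -0.96 to 0.39), while in the other barcodes it was at 1.00. Fosb was at 52.6 CPM in stress and 27.5 CPM in control (0.93, 0.49 to 1.39).

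Heat-shock genes, which encode protein-folding chaperones, were higher in stress for most of the list, by a large factor for a few. Hspa1a was at 246 CPM in stress and 34.0 CPM in control (2.85, 2.53 to 3.20), with a UMI in 54.3% of stress and 18.3% of control members. Dnajb1 was at 181 CPM in stress and 42.7 CPM in control (2.08, 1.77 to 2.40). The cytosolic chaperone gene Hsp90aa1 was at 521 CPM in stress and 332 CPM in control (0.65, 0.52 to 0.78), and the mitochondrial one, Hspd1, had the lowest ratio (-0.01). Of 15 measured, 14 were higher and 1 lower, beside 46.2% of all genes higher. Of their intervals 9 lay wholly above 0, with no share over all genes to set beside them. The median was 0.30 in gonadotropes and 0.37 in the other barcodes. In the other barcodes Hspa1a was at 2.61.

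Genes known to respond to glucocorticoids were mixed in direction, with a median below 0. Of 11 measured 4 were higher and 7 lower, beside 53.8% of all genes lower. Of their intervals 1 lay above 0 and 4 below, with no share over all genes to set beside them. The median was -0.26 in gonadotropes, beside -0.03 over all genes. It was -0.12 without doublet-scored members, and -0.12 in the other barcodes. The metallothionein gene Mt1 was at 654 CPM in stress and 915 CPM in control members (-0.48, -0.58 to -0.39) and at 0.11 (0.08 to 0.13) in the other barcodes. Mt2 was at 216 CPM in stress and 282 CPM in control members (-0.38, -0.56 to -0.21) and at 0.07 in the other barcodes. Fkbp5, which encodes a co-chaperone of the glucocorticoid receptor, was at 50.6 CPM in stress and 65.2 CPM in control (-0.36, -0.74 to -0.00). Sesn1, a growth-inhibiting stress gene, had the lowest ratio (-0.79, -1.64 to -0.02), and the highest was Dusp1 (1.58), a phosphatase gene that is also an immediate-early gene.

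The remaining lists were close to 0. Mitochondrially encoded genes were lower for 12 of 12 measured (median -0.18), with a median of -0.16 and also 12 of 12 lower in the other barcodes. Nuclear-encoded respiratory chain genes were higher for 15 of 22 (median 0.10) in gonadotropes and for 9 of 22 (median -0.02) in the other barcodes. Unfolded protein response genes had a median of -0.01 over 22 genes, clock genes -0.10 over 9, and interferon and antigen presentation genes 0.05 over 7.

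**Figure D3:**
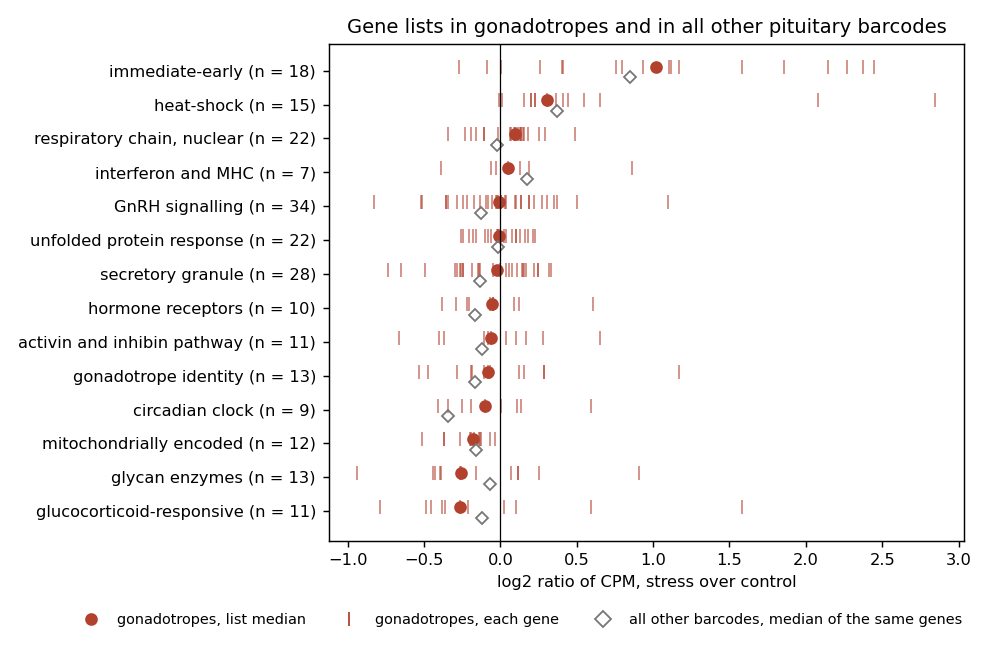
Log2 ratio of CPM, stress over control, of 14 gene lists: each measured gene in gonadotropes (ticks), the list's median in gonadotropes (filled points) and the median of the same genes in all other kept pituitary barcodes (open diamonds). Immediate-early genes have medians of 1.02 in gonadotropes and 0.85 in the other barcodes, and most other lists lie within 0.3 of 0.

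Among the 4801 genes with at least 100 UMIs and a UMI in at least 10% of members where they were higher, the 12 highest ratios were led by the genes above. They were Hspa1a, Nr4a1, Dnajb1, Rrad, Jun, Gm21149, Gm13889, Dusp1, Egr1, Polr3g, Fos and Rgs2. Rrad, which encodes a small GTPase that inhibits calcium channels, was at 55.1 CPM in stress and 13.4 CPM in control (2.03, 1.49 to 2.64). In the other barcodes Rrad was at 2.01 CPM in stress and 1.63 CPM in control (0.30), and 18.2% of its stress UMIs came from 1 gonadotrope. Polr3g, an RNA polymerase III subunit gene, was at 36.1 CPM in stress and 16.02 CPM in control (1.16, 0.60 to 1.76), and at -0.27 in the other barcodes. Gm21149 (1.62) lies beside Gm10354 and Speer4e on chromosome 5 and its count is uncertain for the same reason.

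The 12 lowest were Apoe, Nr0b2, Atg2b, Cdkn1c, Zfp414, Pkd2, Telo2, Limd2, Tiam1, Mgat4b, Lama1 and Gm10116. Apoe, the apolipoprotein E gene, was at 33.1 CPM in stress and 184 CPM in control (-2.47), but 81.7% of its control UMIs came from 1 cell that also held most of the macrophage-marker UMIs. Without that cell Apoe was at 33.1 CPM in stress and 33.8 CPM in control (-0.03, -0.51 to 0.45).

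Nr0b2, which encodes the orphan nuclear receptor SHP, was at 12.03 CPM in stress and 29.8 CPM in control (-1.29, -2.03 to -0.63), and below 1 CPM in the other barcodes of both libraries. Cdkn1c, an inhibitor gene of cyclin-dependent kinases, was at 29.1 CPM in stress and 62.2 CPM in control (-1.09, -1.56 to -0.66). The autophagy gene Atg2b was at 12.03 CPM in stress and 29.0 CPM in control (-1.25, -2.0 to -0.59). Lama1, a laminin subunit gene, was at 16.5 CPM in stress and 31.7 CPM in control (-0.92, -1.57 to -0.34). The other 7 lay between -1.03 and -0.92, each on fewer than 150 UMIs per library, so their intervals were wide.

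Of the marker genes, Grem1 and Ihh differed in opposite directions. Grem1 (chromosome 2, 113746164 to 113758646, minus strand) was at 189 CPM in stress and 109 CPM in control (0.80, 0.57 to 1.02), with a UMI in 60.1% of stress and 43.8% of control members. Ihh was at 31.1 CPM in stress and 54.2 CPM in control (-0.80, -1.26 to -0.36).

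**Figure D4:**
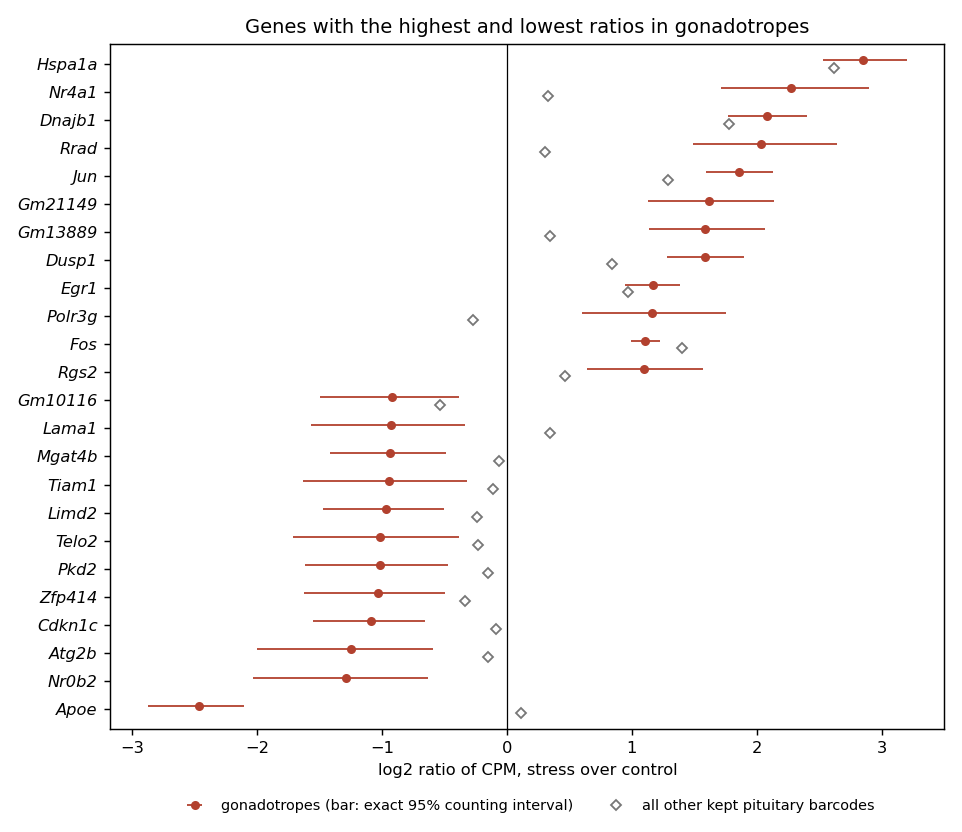
Log2 ratio of CPM, stress over control, of the 12 genes with the highest and the 12 with the lowest ratio in gonadotropes (filled points, exact 95% counting intervals), with the ratio in all other kept pituitary barcodes where it could be formed (open diamonds). Hspa1a (2.85 in gonadotropes, 2.61 elsewhere) is high in both, Nr4a1 (2.27 and 0.32) and Rrad (2.03 and 0.30) are higher in gonadotropes than elsewhere, and Apoe (-2.47) rests on 1 control cell.

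Gonadotropes also differed among themselves in the balance of Fshb and Lhb. Each library was split into 3 equal parts by the Fshb share of Lhb plus Fshb UMIs. The top part had a median share of 28.8% in 57 stress cells and 16.8% in 74 control cells, and the bottom part 11.9% in 57 stress cells and 6.93% in 74 control cells. Since the split was made on these cells, the genes below are a description, chosen in the control library and followed in the stress library.

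In control cells with a high Fshb share Grem1 was at 158 CPM, against 74.5 CPM in the low part (log2 ratio of top over bottom 1.07, 0.64 to 1.54). In stress cells the values were 199 CPM in the top and 173 CPM in the bottom part (0.20, -0.17 to 0.57). Qpct, which encodes an enzyme that caps peptide ends, was at 173 CPM in the top and 93.5 CPM in the bottom part in control (0.88), and at 0.27 in stress. Cdc42ep5 (0.88 in control, 0.39 in stress) and Olfm1 (0.86 in control, 0.11 in stress) had the same order. The uncertain Gm10354 and Speer4e completed the 6 highest, with 1.66 and 1.00 in control.

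Lower in the top part were Tshb, the thyrotropin beta subunit gene (-1.10 in control, -0.53 in stress), and Gadd45g, a growth arrest gene (-1.22 in control, -0.33 in stress). For Tshb, 1 control member held 1.26% of its UMIs where the control median was 0.0073%. The part of that cell in the control ratio of Tshb was not tested. Of the other 4, 2300005B03Rik (-1.44), Rp9 (-0.90) and Ptges3 (-0.79) were near 0 or above it in stress (0.01, 0.23 and -0.07), and Apoe again rested on the 1 control cell. Gnrhr had no common direction, at -0.32 in stress and 0.27 in control. Nor did Cga, at -0.10 in stress and 0.08 in control.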

How the data were processed

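Per the labels, RNA of pooled mouse pituitaries was captured with the 10x Genomics Single Cell kit. The deposited matrices hold raw UMI counts per gene and barcode, not normalised by the authors, for 27998 genes (56 symbols occur more than once). The build mm10, Cell Ranger 2.1.1 and Scanpy are named, with no roles, in the submitters' processing notes. The use of strand in counting was not given in the sources used here.

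In all, the stress library held 5103 barcodes and 53244403 UMIs, the control library 5202 barcodes and 50024887 UMIs. The gene minimum removed 1 and 0 barcodes and the mitochondrial limit 15 and 45 (stress, control). Members held 1995268 UMIs in stress and 2621395 in control.

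UMIs were summed over members and divided by the total UMIs of the members (CPM). Ratios are log2 of the stress level over the control level, after adding 0.5 UMI to both sums. Their intervals are exact conditional binomial intervals at 95% confidence, and those of shares are Clopper-Pearson intervals. They cover counting error only, and amplified reads were already collapsed to UMIs. A gene was measured with at least 50 UMIs over both libraries, and a list's median covers its measured genes. The share of all measured genes whose interval left out 0 was not counted. Endothelial barcodes had at least 5 UMIs over the endothelial markers, somatotropes at least 30% Gh. Doublets were scored from 2 simulated doublets per barcode, with the highest scores marked at a rate that grew with the number of barcodes (207 in stress, 213 in control), and stayed in the main values. The ratio and its interval were tested on simulated data. Python 3.11.15, numpy 2.4.6, scipy 1.17.1, pandas 2.3.3, scikit-learn 1.9.0 and matplotlib 3.10.9 were used.

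Named genes were those of the hormone, identity, activin, receptor and glycan lists by role, the highest and lowest plus up to 3 more by role of the other lists, the 12 highest and 12 lowest ratios, the 15 leading genes of the members over other barcodes, and the 6 genes at each end of the split by Fshb share. The members and the 28 gene lists were chosen with earlier results of these data known. Gene coordinates came from GENCODE vM21 (GRCm38, which mm10 stands for), matched by gene ID for 409 of 410 genes. Amino acid sequences were not used here, and 2 genes of the lists are not reported here by name. The alternatives covered the rule's limits, doublets, shared barcodes, filters, thinning, scaling, cell weighting, the ratio in other cells and the gene minimum, and 1 more, leaving out members with macrophage UMIs, was chosen after seeing the data.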

Additional observations from a re-analysis of the deposited data

Results flagged for a closer look

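Among the 63 genes followed one by one across the processing settings, for 5 the ratio of stress over control in gonadotropes had the opposite sign to that in all other kept pituitary barcodes, with neither counting interval including 0. The 63 held the 12 highest and 12 lowest ratios, leading marker genes and genes picked by role. The share of all measured genes that met this was not counted, so 5 of 63 has no background. Genes outside those 63, Pomc (0.10 and -0.09) and Prl (0.20 and -0.05) among them, also met it. The difference itself was not tested, since each group is 1 library. Nr4a2 was at 2.15 in gonadotropes and -0.32 in the other barcodes. Gnas was at 0.30 in gonadotropes and -0.03 in the others. Mt1 was at -0.48 in gonadotropes and 0.11 in the others, and Mt2 at -0.38 and 0.07. Apoe was at -2.47 in gonadotropes and 0.12 in the others, and at -0.03 in gonadotropes without the 1 control cell rich in macrophage transcripts.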

How the results depend on the processing

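No paired analysis was possible because each group is 1 library. Lhb and Fshb chose the members in each setting, so their ratios here are a description and no check. The log2 ratio of Lhb was -0.47 with Gh under 10%, -0.45 with a 2% floor on Lhb plus Fshb and -0.48 with a Gnrhr UMI required. It was -0.49 without doublet-scored barcodes, -0.53 thinned to 2000 UMIs and -0.53 as the mean of per-barcode shares. Once the ratio in all other barcodes (-0.46) was subtracted, the ratio of Lhb was near 0, at -0.049. Fshb was at 0.24 thinned, 0.27 as the mean of shares and 0.24 after subtraction. Cga was at 0.063, 0.10, 0.070 and 0.071 under the first 4 settings and 0.067 as the mean of shares, and reversed to -0.32 after subtraction, as Cga in the other barcodes, thyrotropes included, was at 0.40. Gnrhr was at 0.070 after subtraction. Subtraction also turned the medians of immediate-early genes (-0.028) and heat-shock genes (-0.032), Fos (-0.29) and Gm21149 (-0.24), and moved the median of all genes to 0.06, against -0.03. Apoe turned to 0.088 without doublet-scored barcodes. The counts of 25 genes at least 2-fold higher and 55 lower became 374 and 608 after thinning, which leaves each gene fewer UMIs, 78 and 253 at a minimum of 20 UMIs, 7 and 2 at a minimum of 200, and 185 and 419 at a 1.5-fold limit, and the lower count became 30 after subtraction. The count past 2-fold thus followed how many UMIs a gene had. Thinning also moved genes on few UMIs by over 1.5-fold, among them Mgat4b to -1.78, Nr4a1 to 2.92, Npas4 to 1.11 and Nr3c1 to 1.42. Of the 63 genes followed one by one, 43 kept their sign in every setting run. Genes on few UMIs are limited by depth, and no setting stands in for a second pool of mice.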

Other observations

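Peptide genes that act on gonadotropes, or on the neurons that drive them, were found in the hypothalamic libraries at uneven levels. Adcyap1, which encodes PACAP, had 556 UMIs in 187 cells in stress and 542 UMIs in 194 cells in control. Tac2, the neurokinin B gene, had 1332 UMIs in stress and 924 in control, and Pdyn, the prodynorphin gene, 969 in stress and 1934 in control. Gnrh1, the GnRH gene, had 20 UMIs in 18 cells of the stress library of the paraventricular nucleus and 1204 UMIs in 33 cells of the control library, of which 1171 were in 1 cell. Npvf, which encodes peptides known to inhibit gonadotropes, had 652 UMIs in stress, 605 of them in 1 cell, and 1888 in control, 1292 of them in 1 cell. Kiss1, which encodes the activator of GnRH neurons kisspeptin, had 1 UMI in stress and 0 in control. The dissected region and single cells set these values, and they give no level for the hypothalamus.

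Lhb had UMIs outside the pituitary. The paraventricular libraries held 121 Lhb UMIs in 91 cells (stress) and 141 in 102 cells (control), with at most 3 UMIs in a stress cell and 4 in a control cell, while Cga and Fshb were at 0 there. Adrenal libraries held 0 Lhb UMIs in stress and in control.

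Xist had 0 UMIs in gonadotropes of both libraries, and the Y-linked gene Ddx3y was at 64.7 CPM in stress and 60.7 CPM in control; the labels used here give no sex for the mice.

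Within stress cells, Egr1 was at 283 CPM in the part with the highest Fshb share and 180 CPM in the part with the lowest (log2 ratio 0.65, 0.32 to 1.00), and in control cells at 117 and 104 CPM (0.17, -0.26 to 0.60). Lhb is part of the share that made the split, so a lower Lhb in the top part is built in. Its medians were 2.22% in the top against 5.38% in the bottom part in stress, and 3.94% against 6.14% in control. Across cells the Spearman correlation of the Lhb and Egr1 shares was -0.24 over 173 stress cells and -0.09 over 224 control cells. That of Lhb and Fos was similar, at -0.22 in stress and -0.14 in control. These are descriptions with no test.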
